A study of Mus musculus with 2 samples.

Results

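Type I interferon-stimulated genes were followed cell by cell in CD8+ T cells taken from B16 F0 tumors, a transplanted mouse melanoma. The set is a list of 42 genes named as interferon-stimulated. Of these, 41 matched a symbol among the 32285 genes counted, and Mx1 was not analysed here. The lean group is 1 library and the obese group is 1 library, both from male C57Bl/6J mice of 16 weeks. By the study's methods, lean mice ate normal chow and obese mice ate a western diet. The labels name no engineered allele and no drug for either group, and the number of mice behind each library is not given in the sources used here. Cells were enriched with CD8 beads and then sorted by CD8 staining before capture in droplets.

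The unit of measurement is the unique molecular identifier (UMI), a tag that marks each captured RNA molecule at its 3′ end, so the levels below count molecules and are not divided by transcript length. Cells with under 7.5% of their UMIs on mitochondrial genes, more than 500 UMIs and fewer than 50000 UMIs were kept. This left 2456 of 2697 lean cells with 27815785 UMIs, and 2289 of 2623 obese cells with 28705830 UMIs. A UMI of a CD8 or CD3 gene was found in 99.4% of the cells of each library, and 4 cell barcodes occurred in both. CPM is the number of UMIs of a gene per 1000000 UMIs of the cells summed. Summed markers of other cell types were 301 CPM lean and 362 CPM obese for 9 dendritic genes, 79.4 and 35.8 CPM for 5 natural killer or gamma-delta T cell genes, and 25.3 and 25.05 CPM for 8 myeloid genes. They were 5.28 and 5.19 CPM for 3 CD4 T cell genes, 3.27 and 4.22 CPM for 4 B cell genes, and 1.22 and 1.43 CPM for 6 melanoma genes, of which 1 was at 0 in both libraries. The dendritic list includes Irf8, which was not confined to dendritic-like cells. In the proliferating-like cluster described below, Irf8 was at 223 CPM lean and 131 CPM obese. Over the 6 dendritic genes with a mean of at least 10 CPM, the median log2 ratio of obese over lean was 1.18, so the 2 sums hide a difference. The 5 red cell genes had no UMI in the lean library and were at 321 CPM in the obese library, almost all of it in 1 cell. Because each diet is represented by 1 library, the diets were not tested against each other. Every interval given is a 95% interval that covers counting error only, and differences between diets cannot be told apart from differences between these libraries.

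Type I interferons, the interferon alpha and beta proteins, bind a receptor made of Ifnar1 and Ifnar2. The kinases Jak1 and Tyk2 then phosphorylate transcription factors, among them Stat2, which joins Irf9 in a complex that binds a DNA element called the interferon-stimulated response element. The genes switched on this way code for proteins that sense, bind or destroy viral RNA, modify other proteins or amplify the pathway. In T cells, interferon acts beside antigen and can favor or restrain expansion depending on when it arrives. Interferon gamma, which T cells make themselves, signals through its own receptor and shares part of these target genes.

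The response element pairs short GAAA blocks, and its core was searched as the letters GAAANNGAAA on both strands in the 250 bases before each start of a gene in RefSeq (GRCm38.p6). The opposite strand reads as TTTCNNTTTC, and overlapping matches were each counted. Of the 42 listed genes, 32 had a promoter entry and 19 of those (59.4%) held at least 1 match, against 936 of 27025 genes (3.46%) in the whole table. In a second list of 53 other interferon-stimulated genes with an entry, 16 (30.2%) held a match, and in 25 interferon gamma and antigen presentation genes 11 (44%) did. A match is only a run of letters in this window and shows no binding. Below are the stretches around the matches of 8 genes that the values turn on, written 5′ to 3′ on the gene's own strand, with the matched bases in capitals.
Isg15, chr4:156200855-156200916, minus strand: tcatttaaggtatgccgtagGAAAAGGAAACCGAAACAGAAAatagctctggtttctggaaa
Ifit1, chr19:34640765-34640833, plus strand: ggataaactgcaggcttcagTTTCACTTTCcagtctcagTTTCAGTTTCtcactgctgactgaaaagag
Ifit3, chr19:34583353-34583436, plus strand: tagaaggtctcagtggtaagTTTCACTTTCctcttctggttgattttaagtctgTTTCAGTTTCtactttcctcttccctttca
Ifit3b, chr19:34607749-34607832, plus strand: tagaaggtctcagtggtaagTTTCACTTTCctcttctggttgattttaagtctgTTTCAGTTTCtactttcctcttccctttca
Rsad2, chr12:26456543-26456592, minus strand: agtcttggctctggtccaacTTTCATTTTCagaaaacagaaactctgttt
Ddx60, chr8:61928014-61928086, plus strand: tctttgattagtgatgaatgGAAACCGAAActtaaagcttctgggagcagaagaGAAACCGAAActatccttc
Bst2, chr8:71537567-71537622, minus strand: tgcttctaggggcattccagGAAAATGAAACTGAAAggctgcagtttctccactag
Slfn5, chr11:82951927-82951976, plus strand: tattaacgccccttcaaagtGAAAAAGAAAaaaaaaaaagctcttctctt

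In Isg15, 3 overlapping matches ran together from 78 bases before the start, so that 4 GAAA blocks followed one another. Bst2 held 2 overlapping matches from 130 bases before the start. The Slfn5 window lies before a RefSeq start that falls inside the gene in another annotation, where Slfn5 begins at base 82951349. Ifit1 and Ifit3 each held 2 separate matches that read TTTC on the gene's strand. The window of Ifit3 and that of its neighbor Ifit3b were the same over all 84 bases printed, at 156 and 188 bases before their starts. Ifi27l2a, Zbp1, Usp18, Rtp4, Parp9, Parp14, Oas2, Dhx58, Ifi204 and Mx1 had no entry.

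The members spanned more than 3 orders of magnitude in level, and a single gene held much of the total. Summed over the list, the cells held 2870.1 CPM in the lean library and 3199 CPM in the obese library. Ifi27l2a, which codes for a small interferon-induced membrane protein, gave 37.6% of the lean and 46.2% of the obese member UMIs. Its level was 1079 CPM (1066 to 1091) lean and 1477 CPM (1463 to 1491) obese. At the other end, Oas2 and Ifi44 stayed below 1 CPM in both libraries, with 18 and 15 lean UMIs and 23 and 28 obese UMIs.

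Among the effectors that bind or cut viral RNA, Zbp1, a sensor of left-handed nucleic acids, was the most abundant at 124 CPM lean and 99.1 CPM obese. The IFIT genes, whose proteins bind foreign RNA, were led by Ifit3 and Ifit1 in both libraries. Ifit3 was at 47.6 and 56.5 CPM, Ifit1 at 28.5 and 33.1 CPM, and Ifit2, Ifit1bl1 and Ifit3b between 9.74 and 13.3 CPM. Isg20, an RNA exonuclease, was at 64.6 CPM lean and 52.3 CPM obese. Rsad2, which makes a nucleotide that ends viral RNA chains, was at 8.70 and 9.93 CPM. The oligoadenylate synthetase genes, which activate an RNA-cutting enzyme, were low, with Oas3 the highest at 11.5 and 15.05 CPM. Samd9l was at 65.5 and 54.5 CPM, Slfn8 at 30.9 and 24.7 CPM and Slfn5 at 17.4 and 22.3 CPM. The latter pair belongs to the Schlafen family, which restricts translation and growth.

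The protein modifiers sat in the middle of the range. Isg15, a ubiquitin-like protein attached to other proteins, was at 89.1 CPM (85.6 to 92.7) lean and 74.6 CPM (71.5 to 77.8) obese. Usp18, which removes Isg15 and dampens the receptor, was at 10.9 and 10.2 CPM. Parp14 and the partners Parp9 and Dtx3l, which act in ADP-ribosylation and ubiquitination, ranged from 32.2 to 69.1 CPM. Trim30a was at 71.0 and 70.0 CPM. The RNA sensors were less abundant, with Ddx58 (RIG-I) at 32.6 and 32.1 CPM and Ifih1 (MDA5) at 12.0 and 12.8 CPM. Of the transcription factors, Irf7, which amplifies interferon production, was at 57.1 and 53.0 CPM, Irf9 at 35.6 and 34.9 CPM and Stat2 at 14.6 and 13.2 CPM.

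The Ifi200 family, cytosolic and nuclear DNA sensors, was the most abundant group after Ifi27l2a, at 514 CPM lean and 558 CPM obese over 7 genes. Ifi203 alone gave 231 and 257 CPM, and Ifi206 97.3 and 112 CPM. Bst2 (tetherin), which holds budding virus at the cell surface, was at 229 and 197 CPM. Xaf1, a promoter of cell death, was at 57.9 and 56.7 CPM, and Rtp4 at 28.3 and 30.5 CPM. Several of these genes have close copies, and values of the copies are uncertain. Of the 50-base windows in the last 500 bases of each transcript, 56.1% of those of Oas1a, 47.8% of Ifi209, 26.9% of Ifi214, 26.0% of Ifi206, 25.5% of Slfn8, 22.8% of Ifi208, 19.9% of Trim30a, 18.7% of Ifi213 and 14.9% of Ifit3 occurred in another gene.

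**Figure D1:**
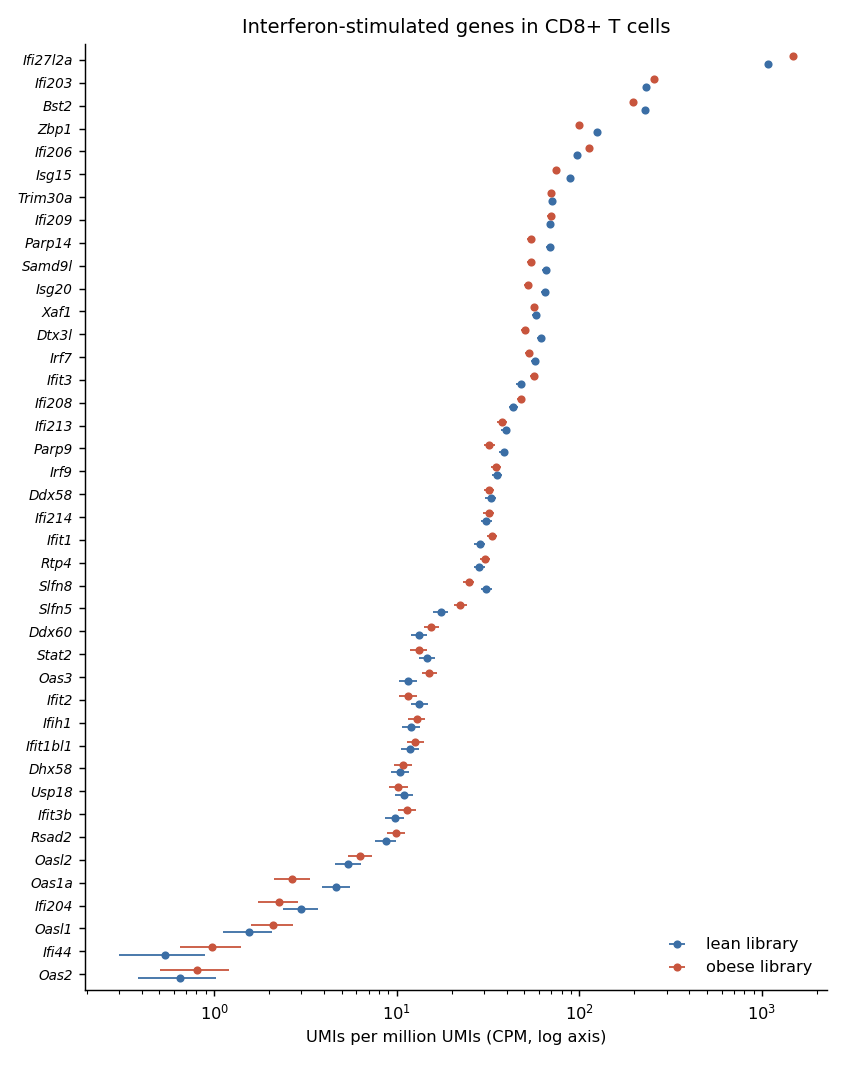
Level of each of the 41 matched members in the lean and the obese library, in CPM on a log axis, with exact Poisson 95% intervals as bars. Ifi27l2a stands at 1079 and 1477 CPM, next come Ifi203 and Bst2 near 200 to 260 CPM, and Oas2 and Ifi44 lie below 1 CPM.

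To ask how many cells responded, each cell was thinned to 2000 UMIs and the members with at least 1 UMI were counted. A further 126 lean and 112 obese cells were shallower and were left out. A cell with 5 or more members is called responding here. In the lean library 713 of 2330 cells (30.6%, 28.7 to 32.5) responded, and in the obese library 717 of 2177 (32.9%, 31.0 to 35.0). At 8 or more members the shares were 11.2% (9.95 to 12.6) and 11.8% (10.5 to 13.2). At 15 or more they were 1.80% and 2.34%, and the fullest cell held 27 members in the lean and 26 in the obese library. At each of these limits the lean and obese intervals overlapped. Without Ifi27l2a, 24.3% of lean and 25.5% of obese cells held 5 or more of the remaining genes, and 9.18% and 8.68% held 8 or more.

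The spread over cells had a single hump with a long tail, and no gap separated silent from responding cells. The most common count was 2 members, in 19.4% of lean and 18.3% of obese cells. Cells with no member UMI made up 4.89% of the lean and 3.63% of the obese library, and these shares fell to 1.01% and 0.837% when cells were thinned to 4000 UMIs instead. The median cell held 4 member UMIs in the lean and 5 in the obese library, the 90th percentile 15 and 16, and the maximum 93 and 103. The variance of member UMIs was 9.30 times the mean in lean and 10.6 times in obese cells, where random sampling of cells with equal levels gives a ratio near 1. The 10% of cells with the most held 38.2% of the lean and 36.8% of the obese member UMIs.

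The list was also split by alternate places in alphabetical order, so that cells placed by one set of genes could be read with the other. In lean cells placed by the genes at odd places, the genes at even places summed to 645 CPM with none of the first set detected. They summed to 704 CPM with 1, 896 CPM with 2, 1179 CPM with 3, 1409 CPM with 4, 2368 CPM with 5 or 6, and 4570.1 CPM with 7 or more. In obese cells the same steps read 657, 689, 868, 1284, 1439.5, 2371 and 5891 CPM. The intervals with none and with 1 overlapped in both libraries (589 to 705 and 660 to 750 CPM in lean cells). From 1 on the mean level rose from bin to bin, and rose most over the last bins, which pool several counts of members. At this depth, bin means and a single hump cannot tell graded cells from a changing mix of silent and responding cells. With the 2 sets swapped, the first step went from 1177 to 1578 CPM in lean and from 1483 to 1883 CPM in obese cells. In cells with none of the first set, 30.3% of lean and 29.9% of obese cells also lacked every gene of the second. Among those with 5 or 6, 3.5% of 144 lean and 3.4% of 147 obese cells did.

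**Figure D2:**
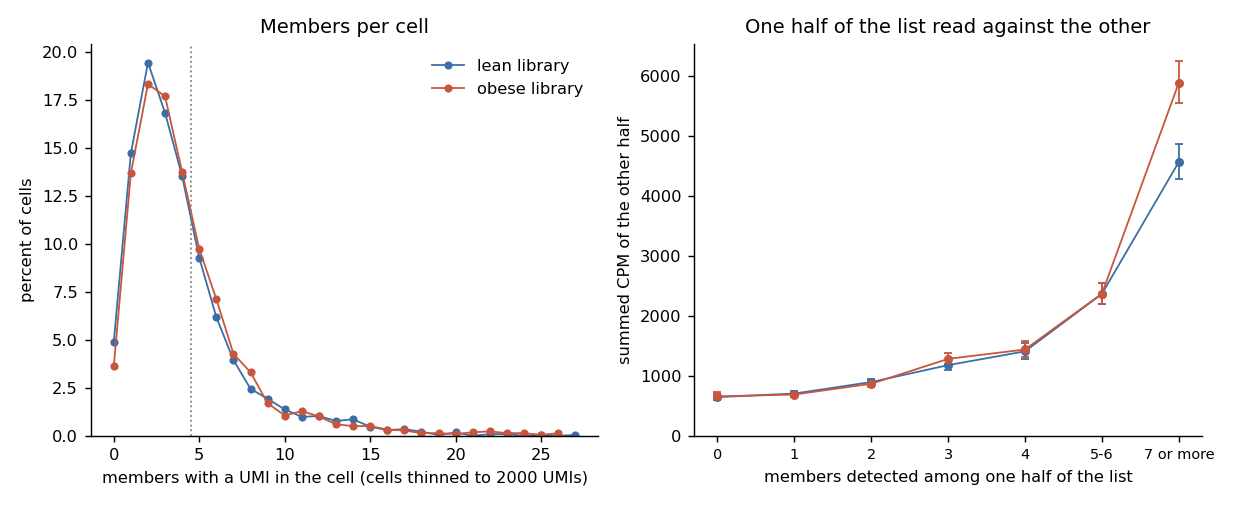
Left, percent of cells against the number of members with a UMI in cells thinned to 2000 UMIs, with a dotted line below 5 members. Right, summed CPM of the members at even alphabetical places in cells placed by the members at odd places, with exact Poisson 95% intervals. Both libraries peak at 2 members with a long tail, and the right panel climbs from 645 to 4570.1 CPM in lean and from 657 to 5891 CPM in obese cells.

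The members differed in how widely they ranged between cells with few and cells with many other members. For each gene, cells were placed by the other members, and cells with at least 8 of them were set beside cells with at most 1. Isg15 had a UMI in 5.45% of the low and 52.8% of the high lean cells, and in 3.12% and 51.5% of the obese cells. Ifit3 went from 1.51% to 48.6% in lean and from 1.84% to 49.4% in obese cells. Ifit1 went from 0.218% to 30.2% in lean cells. In obese cells Ifit1 had no UMI in 377 low cells, which allows a share of up to 0.796%, and was found in 33.3% of the high cells, at least 75.5-fold higher in summed level with 3 UMIs taken as the floor over the low cells. Of these genes Ifit1 came closest to an off and on pattern, although at this depth many of the high cells showed no UMI of it. Ifit3b and Rsad2 were as rare in low cells. Ifit3b went from 0.219% to 16.3% in lean cells and from no UMI to 19.6% in obese cells. Rsad2 went from no UMI to 15.4% in lean and from 0.265% to 12.1% in obese cells.

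Other members covered a narrower range. Ifi203 had a UMI in 28.9% of the low and 69.3% of the high lean cells, a log2 ratio of summed levels of 1.86 (1.60 to 2.12), and 2.06 in obese cells. Irf9 ranged by 1.39 in lean and 1.67 in obese cells, and Samd9l by 1.62 and 1.92. Ifi27l2a was found in 45.3% of the low and 74.8% of the high lean cells and in 60.9% and 82.0% of the obese cells, with log2 ratios of 2.16 and 1.75. By comparison the log2 ratio of Isg15 was 4.51 (3.94 to 5.13) lean and 5.22 (4.43 to 6.15) obese, and that of Ifit3 5.81 and 6.10. The wide-ranging genes Isg15, Ifit1, Ifit3, Ifit3b, Rsad2 and Ddx60 are among those whose windows are printed above. Only genes with a match were picked for printing, so this overlap says nothing about motif and range. Bst2, also printed, ranged by 2.64 in lean and 2.72 in obese cells. Over all members with a ratio, those with a promoter match had a median log2 range of 3.14 lean (18 genes) and 2.96 obese (17 genes), and those with an entry but no match 2.40 and 2.78 (11 genes each). The single genes overlapped, from 1.86 to 7.96 with a match and from 1.39 to 4.41 without in lean cells. In obese cells they ran from 2.06 to 6.10 and from 1.67 to 3.67. Members with no UMI in the low cells gave no ratio. With such members set at their bound where the high cells held more than 3 UMIs, the medians were 3.18 lean and 3.12 obese (19 genes each, with Rsad2 at its bound in lean and Ifit1 and Ifit3b in obese cells) against 2.40 (11 genes) and 2.77 (12 genes, with Oasl1 at its bound). Free RNA in droplets can give UMIs in cells that do not make a transcript. No cell type of the sort is known to lack these genes, so its part in the low shares was not tested.

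**Figure D3:**
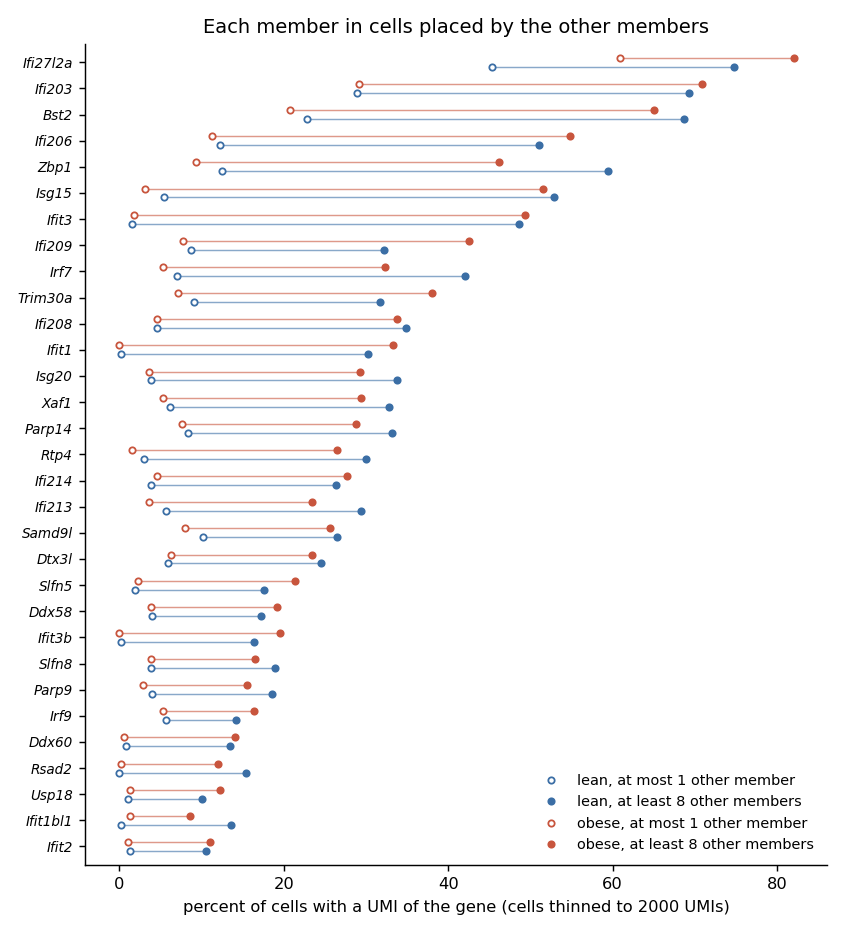
Percent of cells thinned to 2000 UMIs with a UMI of each member, in cells with at most 1 other member (open points) and at least 8 other members (filled points), for members found in at least 10% of the latter. Isg15 moves from 5.45% to 52.8% and Ifit1 from 0.218% to 30.2% in lean cells, while Ifi27l2a starts at 45.3%.

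Cells of both libraries were clustered together after the members and the other interferon lists were left out of the variable genes. Cluster 0 (1166 cells, granzyme K memory-like) was led by Gzma, Ccl5, Ccr2 and Cxcr3, and also by Ifit3, Ifit1, Slfn5 and Ifi208, although these 4 members had not been used. Gzmk itself was not among its 10 leading genes, and was at 195 CPM there against 79.99, 3.55 and 73.4 CPM in clusters 1, 2 and 3. Cluster 1 (1067 cells, proliferating-like) was led by Pclaf, Birc5 and Stmn1, cluster 2 (1013 cells, naive- or memory-like) by Lef1, Satb1 and Tcf7, and cluster 3 (919 cells, effector-like) by the granzymes Gzmd, Gzme and Gzmf. A shallow cluster of 463 cells with a median of 2634 UMIs and one of 87 cells with a median of 735 UMIs stayed unnamed. In the first of these, a single obese cell held 9165 of the library's 9201 hemoglobin UMIs. A group of 30 dendritic-like cells was also present.

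The granzyme K memory-like cluster carried the strongest interferon signature. Summed over both libraries, the members reached 5244 CPM there, 3744 CPM in effector-like, 2312 CPM in proliferating-like and 2114 CPM in naive- or memory-like cells. Of the 41 members, 39 were highest in cluster 0 among these 4 clusters, 36 of them in each library taken alone. How many of all genes were highest there was not counted, so this count has no background. Oasl1, Oas2 and Ifi44, at only 3.81, 2.37 and 1.97 CPM in cluster 0, were highest there only with the libraries summed. Ifit1 stood 4.58 times, Ifit3 4.24 times and Isg15 3.35 times higher in cluster 0 than in cluster 2. Ifi203, at 1.85 times, and Bst2, at 1.62 times, differed less. Range and cluster difference did not always go together. The wide-ranging Ddx60 stood 1.51 times higher, and Ifi27l2a, with its narrower range, 3.98 times.

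The exceptions were Oasl2 and Ifi27l2a. Oasl2, a member of the oligoadenylate synthetase-like family, was at 15.04 CPM in cluster 2 and 12.6 CPM in cluster 0. Ifi27l2a was highest in effector-like cells, at 1926 CPM against 1615 CPM in cluster 0, 1169.8 CPM in cluster 1 and 406 CPM in cluster 2. Isg20 was also high in both of these states, at 109 CPM in cluster 0 and 87.3 CPM in cluster 3 against 25.7 CPM in cluster 2. Most members were lowest in proliferating-like cells, whose median of 22568 UMIs was the deepest. Since CPM is a share of a cell's RNA, less of a transcript and more of other RNA cannot be told apart there.

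Responding cells occurred in every named state at different shares. In cluster 0, 55.3% of lean (50.5 to 60.0) and 54.7% of obese cells (51.0 to 58.4) held 5 or more members. The shares were 32.6% and 27.6% in cluster 3, 21.2% and 20.8% in cluster 2, and 16.9% and 17.0% in cluster 1. At 8 or more members, cluster 0 had 29.6% of lean (25.4 to 34.1) and 22.8% of obese cells (19.7 to 26.0). Clusters 3, 2 and 1 then had 10.2% and 7.85%, 6.67% and 6.78%, and 3.09% and 3.96%. In the shallow unnamed cluster of 463 cells, 30.1% of lean and 35.0% of obese cells deep enough to thin held 5 or more. Cluster 0 made up 18.1% of lean and 31.5% of obese cells, and cluster 3 25.5% and 12.8%. Of the cells with 8 or more members, 50.2% of the lean and 63.4% of the obese cells lay in cluster 0.

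**Figure D4:**
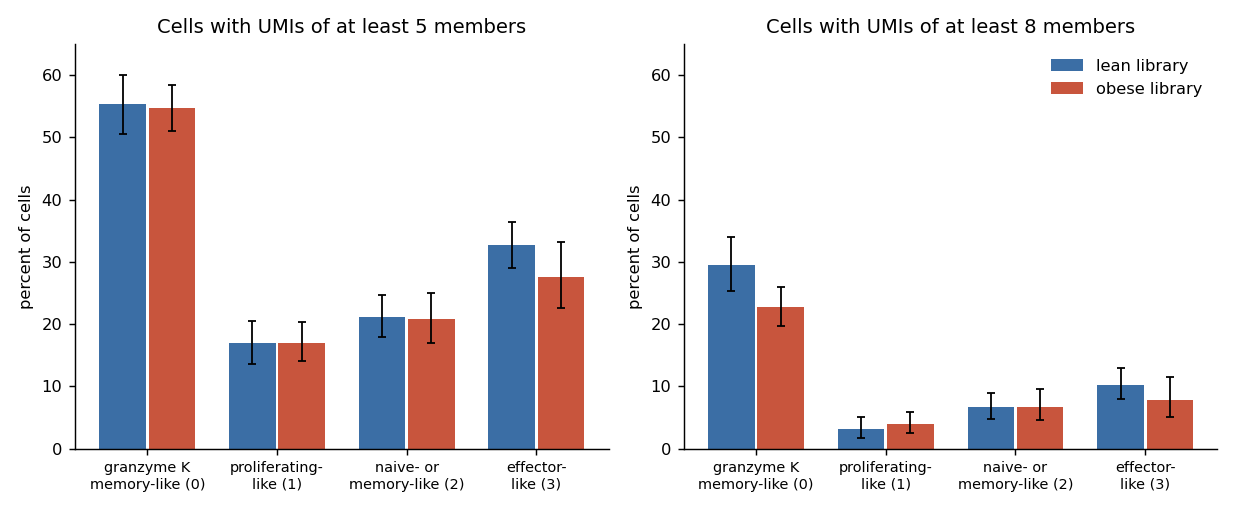
Percent of cells thinned to 2000 UMIs with at least 5 (left) or at least 8 (right) members, by cluster and library, with exact binomial 95% intervals. Cluster 0 stands above the rest at 55.3% and 54.7% on the left, and at 29.6% lean and 22.8% obese on the right.

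When each library's responding share was recomputed at the cluster mix of both libraries pooled, the lean share moved from 30.6% to 32.0% and the obese share from 32.9% to 31.2%. At 8 or more members the shares became 12.4% lean and 10.9% obese. The order of the libraries thus turned at both limits when the mix of clusters was made equal. Each recomputed share still lay within the counting interval given above for its library. That interval does not measure the error of the shift or of the difference between libraries, and the change of order was not tested.

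Over all cells, the obese and lean libraries differed little in most members. A gene was counted as past the fold at a log2 ratio of obese over lean of at least 0.3 or at most -0.3, among genes with a mean of at least 10 CPM. Of 34 members above that mean, 3 were higher in the obese library, where 8.7% of 6899 genes were, and 4 were lower, where 4.41% of all genes were. The median over the members was -0.02, and 0.03 over all genes. The 3 higher members were Ifi27l2a at 0.45 (0.43 to 0.47), Oas3 at 0.39 (0.18 to 0.60) and Slfn5 at 0.36 (0.19 to 0.53). The 4 lower members were Parp14 at -0.35, Zbp1 at -0.33, Slfn8 at -0.32 and Isg20 at -0.31. The other 7 matched members (Rsad2, Oasl1, Oasl2, Oas1a, Oas2, Ifi204 and Ifi44) lay below that mean. Among them, Oas1a was at 4.64 CPM lean and 2.68 CPM obese (-0.79, -1.22 to -0.37), with shared windows as above.

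These counts moved with the processing. The summed level of the list was 0.16 (0.14 to 0.17) higher in the obese library on the log2 scale, but -0.06 (-0.08 to -0.04) without Ifi27l2a, at 1792 CPM lean and 1722 CPM obese. With the cluster mix held equal, 11 of 35 members were lower, where 5.54% of 7060 genes were, and 1 was higher, where 7.46% were. In that setting Oas3 and Slfn5 came to 0.04 and 0.00. Ifit3, at 0.25 (0.14 to 0.35) over all cells, came to -0.31. Ifi27l2a stayed between 0.39 and 0.48 in every setting tried. The share of thinned cells with an Ifi27l2a UMI was 52.8% lean and 68.1% obese.

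By role, the 6 protein modifiers had a median log2 ratio of -0.26, from -0.35 for Parp14 to -0.02 for Trim30a, with 1 past the fold. The 11 viral RNA effectors above the mean had a median of 0.10 and ranged from -0.33 to 0.39. The 6 Ifi200 genes were between -0.07 and 0.21 and the 4 RNA sensors between -0.02 and 0.23, and none passed the fold. The 3 transcription factors ranged from -0.15 for Stat2 to -0.03 for Irf9.

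Within cell states the ratios separated. In effector-like cells, 22 of 33 members were lower in the obese library against a background of 10.5% of 6691 genes, and 2 were higher against 17%. The median over members was -0.42, and 0.03 over all genes. Isg15 was at 114 CPM in lean and 57.0 CPM in obese effector-like cells, a log2 ratio of -1.01 (-1.21 to -0.81). Ifit2 was at 16.0 and 6.56 CPM (-1.29, -1.91 to -0.71), Rsad2 at 13.5 and 7.65 CPM (-0.82), Isg20 at 102 and 59.9 CPM (-0.77) and Bst2 at 223 and 144 CPM (-0.64). Zbp1 had a log2 ratio of -0.76 (-0.93 to -0.60). All 5 modifiers above the mean and 5 of 6 Ifi200 genes were among the lower members, while none of the 4 RNA sensors was past the fold in either direction.

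Against that movement, Ifi27l2a was higher in obese effector-like cells, at 2392 CPM against 1669 CPM (0.52, 0.48 to 0.56), and so was Slfn5 at 22.7 against 16.6 CPM (0.45, 0.07 to 0.83). The sum of the other members without Ifi27l2a was 2002 CPM lean and 1485 CPM obese (-0.43, -0.47 to -0.39). When each cell was thinned to 2000 UMIs, 13 of 33 members were lower, against 21.4% of 6686 genes. With 5 clusters, the matching cluster held 1981 cells against 919, so it also took in many cells of other states. There 13 of 26 were lower, against 6.29% of 6771 genes. The median kept its direction in the 7 alternatives, from -0.24 to -0.46. The median depth of the effector-like cells was 11059 UMIs in the lean and 14051 UMIs in the obese library. Over all cells, 9 effector genes summed to 5573 CPM lean and 3033 CPM obese, and the part of either in the member ratios was not tested.

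In granzyme K memory-like cells the members were also lower, by less. None of 36 members was higher in the obese library, against 14% of 6727 genes, and 13 were lower, against 11.9%. The median was -0.21, and 0.00 over all genes. In the 7 alternatives the members' median ran from -0.13 to -0.26. These cells had a median depth of 4988 UMIs in the lean and 6627 UMIs in the obese library, and the part of depth was not tested. Stat2 was at 28.5 CPM lean and 17.8 CPM obese (-0.68, -1.15 to -0.21), Irf7 at 169 and 117 CPM (-0.53, -0.71 to -0.34), Dtx3l at 109 and 76.2 CPM (-0.51) and Bst2 at 448 and 322 CPM (-0.48). Ifit3 was at 250.3 and 190.1 CPM (-0.40, -0.54 to -0.25) and Isg15 at 247 and 201 CPM (-0.29). Ifi27l2a, at 1592 and 1626 CPM, differed by 0.03 (-0.03 to 0.09). Bst2, Zbp1, Ifi214, Irf7, Parp9, Dtx3l and Slfn8 were past the fold in both this and the effector-like cluster.

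In the other 2 named states the members went both ways. In proliferating-like cells 5 of 24 members were higher (8.77% of all genes) and 6 were lower (6.01%), with a median of 0.00. Ifi27l2a was the most changed, at 878 CPM lean and 1408 CPM obese (0.68, 0.65 to 0.72). Ifi206 was at 48.2 and 66.6 CPM (0.47), while Parp14 was at 60.1 and 39.0 CPM (-0.63). In naive- or memory-like cells 7 of 33 were higher (14.2%) and 2 were lower (11.5%), with a median of 0.09. Slfn5 was at 13.7 and 24.2 CPM there (0.82, 0.33 to 1.31), Ifit1 at 19.6 and 28.1 CPM (0.52, 0.09 to 0.94) and Zbp1 at 109.9 and 80.7 CPM (-0.45). Zbp1 was the only member past the fold in the lower direction in all 4 named clusters.

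**Figure D5:**
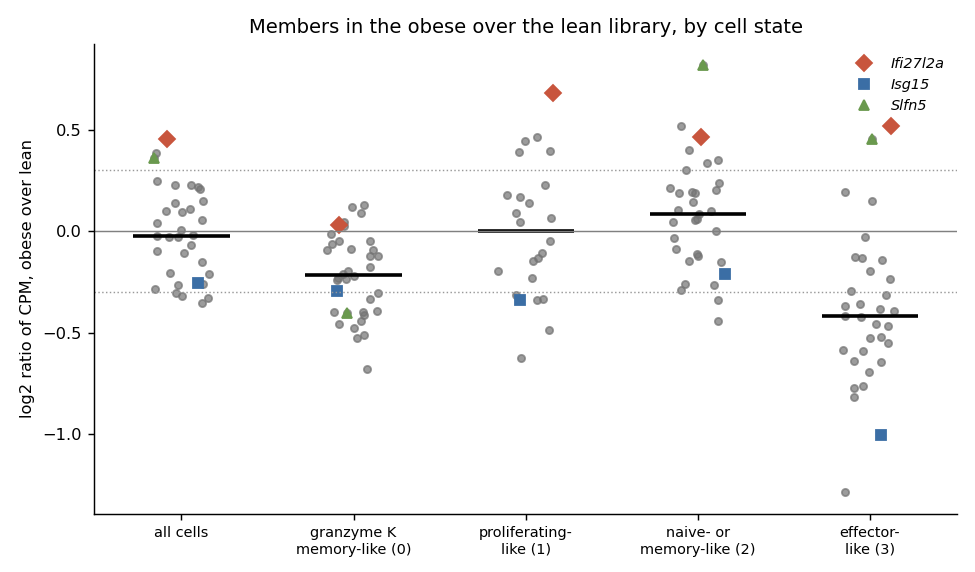
Log2 ratio of CPM, obese over lean, of each member with a mean of at least 10 CPM, over all cells and within the 4 named clusters. Points are members (diamond Ifi27l2a, square Isg15, triangle Slfn5), thick lines medians and dotted lines the limits of 0.3 and -0.3. The median is -0.42 in effector-like and -0.21 in granzyme K memory-like cells, and Ifi27l2a lies at 0.52 and 0.03 there.

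The upstream pathway was described with lists of its parts. Of 21 ligand genes, 19 had no UMI in either library, among them Ifnb1, every interferon alpha gene listed and the lambda genes, and Ifnz had 8 lean and 3 obese UMIs. A count of 0 allows up to 0.108 CPM lean and 0.105 CPM obese, so these ligands were not detectable at this depth in sorted CD8+ cells. Interferon gamma (Ifng) was abundant, at 580 CPM lean and 525 CPM obese (-0.14). In effector-like cells Ifng was at 812 and 656 CPM (-0.31, -0.37 to -0.24). In granzyme K memory-like cells it was at 449 and 549 CPM (0.29, 0.19 to 0.39), and in clusters 1 and 2 it differed by -0.16 and 0.19. Of 7 receptor and kinase genes above the mean, only Ifnar2 was past the fold, at 44.6 and 55.7 CPM (0.32, 0.21 to 0.43). Of all genes, 8.7% were higher and 4.41% lower. Ifnar1 was at 42.2 and 43.1 CPM, and Jak1 and Tyk2 differed by 0.05 and -0.05.

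Downstream of the receptor, Irf8 and several feedback genes differed. Irf8, a transcription factor that T cell activation also raises, was lower at -0.69. Socs1, which blocks the receptor's kinases, was at 69.6 and 91.6 CPM (0.40, 0.31 to 0.48), and in effector-like cells at 55.1 and 104 CPM (0.91, 0.72 to 1.10). In granzyme K memory-like cells Socs1 differed by -0.08 (-0.29 to 0.13). Socs3 was higher in all 4 clusters, from 0.32 in cluster 0 to 1.40 in cluster 1. Of the 6 feedback genes 3 were higher (Socs1, Socs3 and Irf2bp2), against 8.7% of all genes. The phosphatase Ptpn6 was the 1 lower gene, at -0.56, against 4.41%.

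Interferon-stimulated genes outside the set also differed little over all cells. Of 38 such genes above the mean, 1 was higher (8.7% of all genes) and 2 were lower (4.41%), with a median of -0.02. The higher one was Cxcl10, a chemokine that draws Cxcr3-bearing T cells, at 29.1 CPM lean and 59.7 CPM obese (1.04, 0.92 to 1.16). It was higher in each named cluster, at 0.34, 0.56, 1.58 and 1.43 in clusters 0 to 3. In effector-like cells 11 of 40 such genes were lower (10.5% of all genes) and 5 were higher (17%), with a median of -0.14. The lowest of these 40 was Ifitm3, which blocks the entry of viruses, at 24.6 CPM lean and 3.71 CPM obese (-2.72, -3.53 to -2.01). Ifitm1, below the mean of 10 CPM there, had 135 lean and 2 obese UMIs (-5.22, -8.28 to -3.34). In clusters 0, 1 and 2, 6 of 41, 4 of 34 and 1 of 34 were lower, against 11.9%, 6.01% and 11.5% of all genes. In the same order 2, 4 and 3 were higher, against 14%, 8.77% and 14.2%. The interferon gamma and antigen presentation list had 6 of 32 genes lower (4.41% of all genes) and none higher (8.7%), with a median of -0.19. Its lower genes were GTPases of the Gbp and Irg families, among them Igtp at 60.0 and 44.5 CPM (-0.43), while B2m and H2-K1, parts of MHC class I, differed by 0.03 and 0.02. Within clusters 0 to 3, 14 of 34, 5 of 30, 10 of 32 and 13 of 32 of these genes were lower, against 11.9%, 6.01%, 11.5% and 10.5% of all genes. None of these genes was higher, against 14%, 8.77%, 14.2% and 17%.

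Responding cells also differed from the other cells in genes outside the set. The members themselves chose these cells, so only other genes are given, at equal depth and in each library. A log2 ratio of at least 1 in both libraries was reached by 38 of 8422 genes (0.451%). Of the other interferon-stimulated genes 14 of 44 did so, and of the interferon gamma list 12 of 34. The genes with the highest ratio were Cmpk2, a mitochondrial nucleotide kinase, at 3.42 lean and 2.79 obese, Iigp1 at 2.56 and 2.12, Cxcl10 at 2.23 and 1.75, Ifitm3 at 1.68 and 2.58, and Trim30d at 1.85 and 2.07. Trim30d shares windows with the member Trim30a. Igtp, Rnf213, Gbp2, Slfn1 and Herc6 ranged from 1.39 to 1.78. Ifng was at -0.17 and 0.10.

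Within clusters, the ratio of Iigp1 ranged from 1.80 to 3.06 over the 8 pairings of library and cluster. Rnf213 ranged from 1.12 to 2.02 and Gbp2 from 1.08 to 1.83 over the same 8. In obese effector-like cells the intervals of all 3 genes spanned 0, with Iigp1 at 1.80 (-0.76 to 4.57) from 4 and 3 UMIs. The other 7 intervals of each gene lay above 0. Some other high genes held less evenly. Herc6 was at -0.07 (-1.84 to 1.39) in obese naive- or memory-like cells, and its interval also spanned 0 in lean proliferating-like cells. The Cxcl10 interval spanned 0 in lean proliferating-like and lean effector-like cells only. Trim30d spanned 0 in lean granzyme K memory-like and obese effector-like cells only. Over all clusters, Cmpk2 rested on 33 against 7 lean and 34 against 10 obese UMIs. The lowest ratios belonged to Rrm2 (-1.74 lean, -1.97 obese) and Pclaf (-1.23 and -1.25), genes of DNA synthesis, and to Xcl1, Idi1 and Nrn1. Within the proliferating-like cluster, Pclaf differed by -0.10 (-0.49 to 0.27) in lean and -0.18 (-0.51 to 0.14) in obese cells. Rrm2 stayed lower in responding cells of that cluster, at -0.86 (-1.74 to -0.09) in lean and -0.98 (-1.79 to -0.25) in obese cells. Summed markers of myeloid cells were 54.7 CPM in responding and 18.2 CPM in other lean cells, and 48.1 and 22.3 CPM in obese cells. The part of such RNA or of doublets, which were not removed, was not tested. Before thinning, responding cells had a median of 7150 UMIs against 8972 in lean, and 7781 against 10621.5 in obese cells.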

How the data were processed

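The authors aligned and counted the 3′ droplet libraries with Cell Ranger 6.0.2 on mm10, per the labels, and deposited the counts of UMIs per gene and cell without normalization, 1 matrix per library. The annotation release is not given in the sources used here. The cell limits of the study were applied, since some deposited cells lay outside them. Doublets were not removed.

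Counts were summed and thinned (fixed seed) in Python 3.11.15 with numpy 2.4.6, scipy 1.17.1 and pandas 2.3.3. Intervals were exact: Poisson for CPM, Clopper-Pearson for shares of cells and conditional binomial for log2 ratios. Clusters came from Seurat 5.3.0 in R 4.3.3 (libraries merged without integration, 2000 variable genes, 20 principal components, 20 neighbours). The design asked for 6 clusters, which no resolution in steps of 0.05 gave, so 7 clusters were used at 0.15. Cluster names came from marker lists. In cluster 0 interferon genes stood among the leading genes beside its markers. Depth was 27815785 and 28705830 UMIs, with medians of 7958 and 9103 per cell.

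Named genes are the members, the pathway and marker lists, the 10 highest and 5 lowest other genes by the ratio of responding over other cells in both libraries, and leading genes of clusters. The members and lists were chosen with earlier results of these data known. Only the ratio intervals were tested on simulated counts, and thinning was checked on some of the kept cells. The simulated counts varied by Poisson sampling alone and do not carry the wider spread over cells described above. Alternatives covered TMM scaling (edgeR 4.0.16), filters on genes and cells, thinning depth, limits on members, and clustering. No column of the files was left unmapped. Values of some single list genes are not reported here.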

Additional observations from a re-analysis of the deposited data

Results flagged for a closer look

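For 6 members the log2 ratio of obese over lean lay above 0 in 1 named cluster and below 0 in another, with each interval clear of 0. How many of all genes did so was not counted, so this count has no background. Each value compares 1 library with 1 library, and the difference between clusters was not tested. Ifit1 was at 0.52 (0.09 to 0.94) in naive- or memory-like and -0.52 (-0.85 to -0.21) in effector-like cells. Ifit3 was at 0.39 (0.11 to 0.67) in proliferating-like and -0.40 (-0.54 to -0.25) in granzyme K memory-like cells. Rtp4 was at 0.40 in proliferating-like and -0.46 in effector-like cells, and Ifi206 at 0.47 and -0.39 in the same clusters. Ifi214 was at 0.44 in proliferating-like and 0.40 in naive- or memory-like cells, against -0.30 in granzyme K memory-like and -0.64 in effector-like cells. Slfn5 went the other way in effector-like cells, at 0.45, with 0.45 in proliferating-like and 0.82 in naive- or memory-like cells against -0.41 in granzyme K memory-like cells. In proliferating-like cells Slfn5 was at 7.58 CPM over both libraries, below the limit of 10 CPM used above. Ifi206 and Ifi214 share windows of their last 500 bases with other genes (26.0% and 26.9%).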

How the results depend on the processing

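Of the recomputed values that answer a comparison, 91 stayed within the spread allowed, 50 moved and 1 changed sign. A change of sign was not counted for the members' median over all cells, which was judged by its spread only. The list's sum fell from 0.156 to -0.057 on the log2 scale without Ifi27l2a, to 0.112 with TMM, 0.076 with all deposited cells and 0.022 at an equal cluster mix. Ifit3 over all cells turned from 0.25 to -0.31 at that mix. Lower members (4 of 34, with 4.41% of all genes) were 8 of 34 with TMM (5.94%), 1 of 35 as a mean over cells (6.45%), 1 of 35 thinned (9.3%), 9 of 31 with all deposited cells (4.5%), 11 of 35 at an equal mix (5.54%) and 0 of 35 without the 5% of cells with the most UMIs (4.52%). Higher members (3 of 34, with 8.7%) were 6 of 35 as a mean over cells (9.62%), 7 of 35 thinned (13.2%), 6 of 41 without a filter (21.5%), 1 of 15 at a mean of 50 CPM (7.67%), 1 of 31 with all deposited cells (10.3%) and 1 of 35 at an equal mix (7.46%). The median (-0.022) was -0.152 with all deposited cells and -0.172 at an equal mix. It lay above 0, within the spread allowed, in other settings. These were 0.054 as a mean over cells, 0.084 thinned, 0.005 without a filter and 0.036 without the 5% of cells with the most UMIs.

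Responding shares followed depth and threshold. Lean and obese shares were 12.9% and 12.9% at 1000 UMIs, 58.5% and 62.1% at 4000, 60.9% and 64.4% at 3 members, 11.2% and 11.8% at 8, 13.7% and 14.0% without the 5 members with the most UMIs, and 24.3% and 25.5% without Ifi27l2a. The lean share was 32.6% without the 5% of cells with the most UMIs. The obese share was 30.3% with all deposited cells and 30.8% without clusters 4, 5 and 6. Cells with no member UMI were 16.5% lean and 13.1% obese at 1000 UMIs, 1.01% and 0.837% at 4000, 21.8% and 22.1% without the top 5 members, and 9.18% and 9.55% without Ifi27l2a. The top 10% of cells held 43.2% lean and 46.1% obese without the top 5 members, 39.1% and 41.4% without Ifi27l2a, 38.2% obese at 1000 UMIs and 37.2% lean at 4000. With 5 clusters, the cluster matching the effector-like one held 1981 cells, against 919 in the main setting. In it 25.7% of lean and 20.6% of obese cells responded, and 13 of 26 members were lower (6.29% of all genes). When the main effector-like cells were thinned, 13 of 33 were lower (21.4%). The cause of these shifts was not tested.

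The settings without Ifi27l2a, without clusters 4 to 6, without shared barcodes and those within states were chosen after seeing the data. No paired analysis was possible because each diet has 1 library.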

Other observations

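Cells outside the limits had a lower share of member UMIs than all kept cells, at 2870.1 CPM lean and 3199 CPM obese. Some kept states were nearly as low. Proliferating-like cells were at 2042 CPM lean and 2532 CPM obese, and naive- or memory-like cells at 2040 and 2208 CPM. The totals include mitochondrial UMIs, so a lower share in cells above the mitochondrial limit need not mean fewer member molecules. Above the UMI limit, 83 lean cells held 1937 CPM of members (1901 to 1973) and 121 obese cells 1864 CPM (1837 to 1892). Above the mitochondrial limit, 158 lean cells held 1774 CPM (1634 to 1922) and 213 obese cells 1733 CPM (1630 to 1842). The 30 dendritic-like cells held 4927 CPM of members, of which Bst2, a surface marker of plasmacytoid dendritic cells, gave 1892 CPM. Cells with an Ifit3 UMI also had one of Isg15 in 45.2% of lean (38.5 to 52.1) and 49.8% of obese cells (43.0 to 56.6), against 9.66% and 8.23% of cells without one. A summed marker list of proliferating cells was 1335 CPM in responding and 2111 CPM in other lean cells, and 1859.8 and 2667 CPM in obese cells.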
